A study of Mus musculus with 4 samples.

Results

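Heat shock proteins are molecular chaperones. Hsp70 proteins bind unfolded stretches of their clients in cycles of ATP hydrolysis, and J proteins of the DNAJ family bring clients to Hsp70 and start that hydrolysis through their J domain. Hsp90 takes over partly folded clients, Hsp110 proteins exchange the nucleotide of Hsp70, small heat shock proteins hold unfolded proteins without ATP, and the Hsp60 chaperonin folds imported proteins inside mitochondria. Heat shock factor 1 (Hsf1) switches on the inducible members of these families under stress by binding heat shock elements, which are inverted repeats of the unit nGAAn, while other members are made at all times. In the spleen, lymphocytes, macrophages and the red cell and granulocyte precursors that mature there all make chaperones.

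The genes were taken by name. Every gene of the table was taken whose mouse symbol starts with Hspa, Hspb, Hsph, Hspd, Hspe, Hsp90, Dnaja, Dnajb or Dnajc. The next character had to be a number or, for the Hsp stems, the letter a. This gave 71 of 23763 genes. Of these, 64 reached a mean of 1 over the 4 libraries and were tested, and 7 were under that minimum (Hspa1l, Hspb2, Hspb9, Dnajc22 and the pseudogenes Hspe1-ps2, Hspe1-ps5 and Dnaja1-ps). Hspbap1 was taken by its name although it is a binding partner of Hspb1 and not a chaperone. Hsp90b1, the Hsp90 of the endoplasmic reticulum (ER), did not match the name pattern and is given with the other chaperone genes.

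The RNA came from the spleen of C57BL/6J mice that were sampled at baseline, with no treatment named. Wild-type mice (WT) gave 2 libraries and mice with a KLHL3 knock-in (KLHL3-KI) gave the other 2. KLHL3 is a substrate adaptor of the Cullin-3 ubiquitin ligase, best known for its role in renal salt transport. The sources used here do not give the allele, whether it was heterozygous, or the age and sex of the animals. They also do not say whether the libraries of a group came from separate animals, so each p-value measures only the spread between these libraries, which may be technical. Total RNA was depleted of ribosomal RNA and made into strand-preserving libraries. All levels below are read counts scaled by 1 factor per library by the authors ("normalized read counts"), and the whole reads behind them numbered 8535483 and 8975415 in WT against 9586677 and 10933023 in KLHL3-KI, replicate 1 first, as in every pair of values below.

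The promoter windows of several members hold letters that match the heat shock element, and no binding was measured. The matches of some members that rose are printed here from the RefSeq table of build GRCm38.p6. They are not the set with the largest changes, since Dnajb3, Hsp90aa1 and Dnajb2 are not among them. Matches before the start sites of Dnajc10, which rose, and of Hsph1, Dnaja1, Hspb6 and Dnajc27, which were not called, are not printed. Each window ran from 250 bases before to 50 bases after an annotated start site. It was searched for a pair of units (GAANNTTC or TTCNNGAA) and for 3 units in a row (GAANNTTCNNGAA or TTCNNGAANNTTC). Each pair reads the same on both strands, and every match of 3 units also holds pairs. Capitals mark the GAA and TTC units, all sequences run 5′ to 3′ on the strand of the gene, and a match is a description of the letters and not of a bound site. The mitochondrial chaperonin genes Hspd1 and Hspe1 lie head to head and share 1 element at chr1:55088053-55088082. It is read on the minus strand for Hspd1 and on the plus strand for Hspe1. All 30 bases of this stretch lie in annotated exons, counted on either strand. The Dnajb6 element lies at chr5:29735846-29735870 on the plus strand. Its printed stretch begins at base -52 or -133, depending on the annotated start site, and all 25 bases lie in exons. Of the 58 bases printed for Dnaja4, 7 lie in exons. Hspb1 holds a pair of separate matches at chr5:135887796-135887835 on the plus strand, as does Dnaja4 at chr9:54699463-54699520 on the plus strand. The Dnajb4 element lies at chr3:152193846-152193865 on the minus strand.
Hspe1: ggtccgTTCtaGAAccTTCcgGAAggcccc
Hspd1: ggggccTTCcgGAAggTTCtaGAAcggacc
Dnajb6: ctccgaGAAtcTTCcgGAAcgctag
Hspb1: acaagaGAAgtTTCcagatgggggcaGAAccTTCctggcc
Dnaja4: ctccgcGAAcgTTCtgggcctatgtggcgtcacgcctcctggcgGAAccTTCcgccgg
Dnajb4: tcgctgTTCtaGAAagtaca

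The window was found for 55 of the 71 members. Members without one included Hsp90aa1, Hspa8, Hsp90ab1 and Hspa9. Of the 55 members with a window, 14 (25.5%) held a pair of units and 4 (7.27%) held 3 units in a row. The shares over all 27025 genes with a window were 17.0% and 0.662%. Among the 20 members that rose in KLHL3-KI (below), 17 had a window, and 8 of those (47.1%) held a pair and 3 (17.6%) held 3 units. The 3 were Hspd1, Hspe1 and Dnajb6. Since Hspd1 and Hspe1 share 1 element, it is counted for both genes in both shares. Among the 44 tested members that did not rise, 36 had a window, of which 6 (16.7%) held a pair and 1 (2.78%) held 3 units. That last gene was Hsph1, whose level was not called. Hspa1b, which rose, and Hspa1a, which was not called, hold the same pair but are counted on opposite sides. No test was made of these shares.

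Values were compared on the scale log2(value + 1) with limma, and a gene was called where the Benjamini-Hochberg adjusted p over all 16970 tested genes was under 0.05. Because of the added 1, the log2 fold changes understate the change of genes at low levels. Of the 64 tested members, 20 (31.2%) rose in KLHL3-KI, against 15.2% of all tested genes, and 1 (1.56%) fell, against 7.56% of all. In either direction, 22.8% of all tested genes were called. The counts by role below cover few genes each and are to be read beside the shares of all tested genes. Both KLHL3-KI values lay above both WT values in 33 members (51.6%, against 32.8% of all genes) and below them in 15 (23.4%, against 31.9%), and the groups overlapped in the other 16. The log2 fold changes ran from -0.70 to 1.59 with a median of 0.21, beside a median of -0.01 over all tested genes. Of the 20 rises, 7 were over 1 on the log2 scale, and 9 kept their call in each of the 16 alternative analyses that gave a value for them: Hsp90aa1, Hspa4l, Hspd1, Hspb1, Dnaja4, Dnajb2, Dnajb3, Dnajb4 and Dnajc9. Scaling each library to an equal total left 12 rises (18.8% of members, against 11.3% of all genes) and gave 7 falls (10.9%, against 18.4%), and the member median was then 0.05 beside -0.16 over all genes. With WT replicate 2 left out, 9 members rose (14.1%, against 8.17% of all genes). Members together took 0.912% and 0.745% of the reads in WT and 0.995% and 0.867% in KLHL3-KI, so that this share overlapped between the groups.

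**Figure D1:**
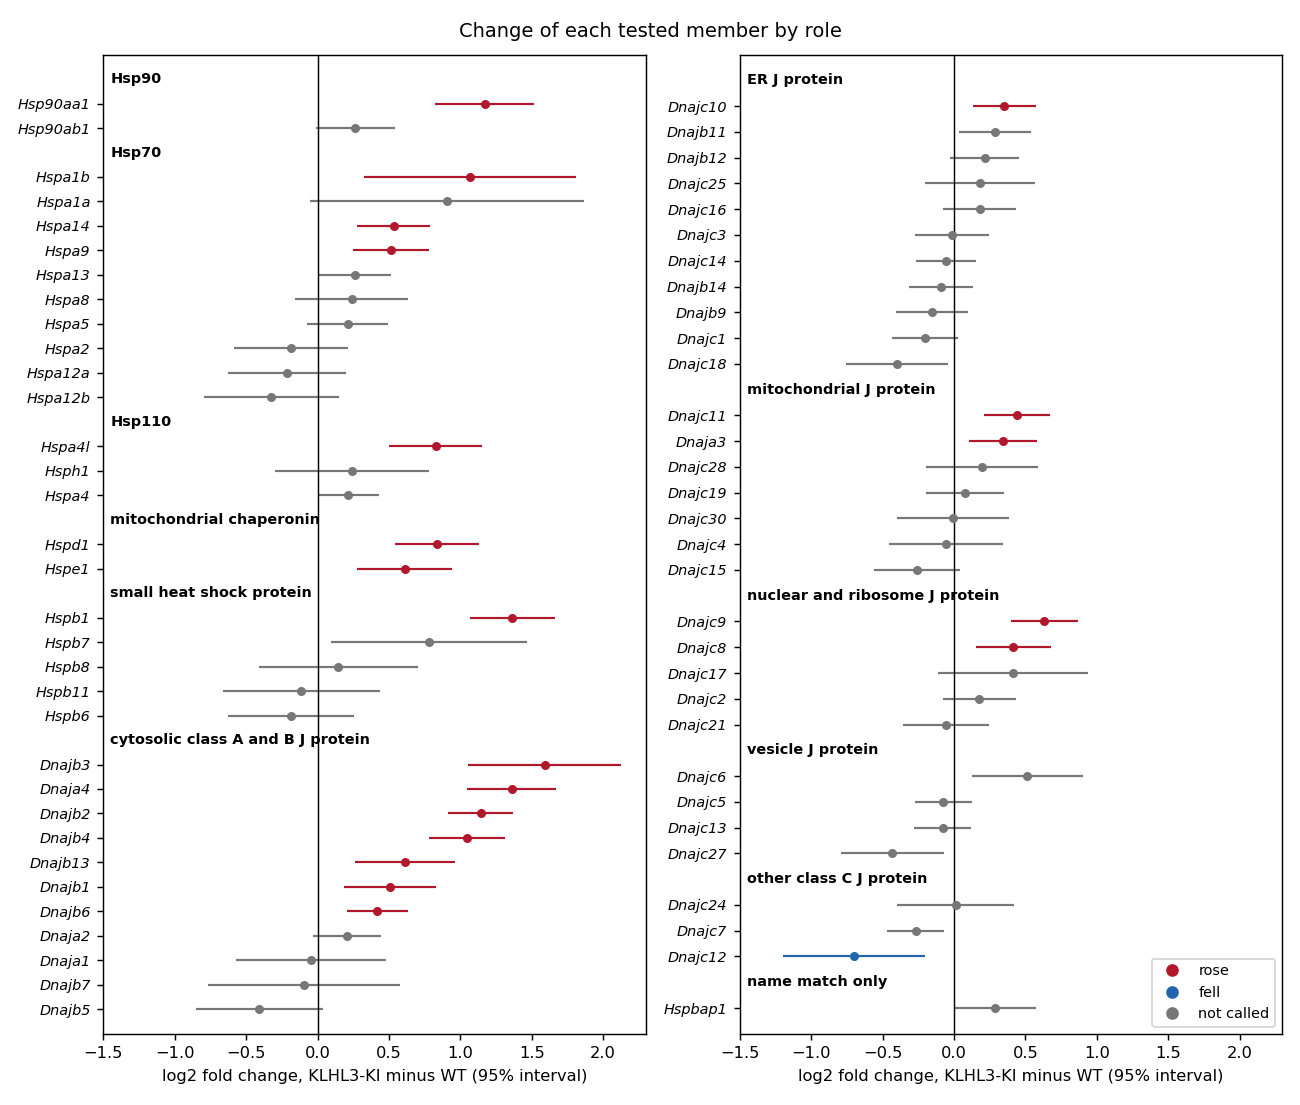
Log2 fold change of KLHL3-KI against WT (x axis, on the log2(value + 1) scale) for each of the 64 tested members, ordered by role. Points are limma estimates, bars are 95% intervals, and colours mark the 20 members that rose, the 1 that fell and the 43 that were not called. The cytosolic class A and B J proteins hold 4 of the 7 rises over 1.

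The make-up of the libraries also moved with the groups. All 10 red cell precursor markers rose, with a summed level of 1760 and 1386 in WT against 6731 and 7634 in KLHL3-KI. All 8 markers of dividing cells rose (986 and 839 against 3965 and 4777), and all 8 markers of neutrophils and their precursors rose (150 and 66.9 against 1409 and 1905). All 8 T cell markers fell (456 and 415 against 256 and 237), and 7 of 8 B cell markers fell (3215 and 3350 against 2453 and 1855). Of 16 immediate early genes, 8 rose and 1 fell (902 and 935 against 1124 and 1033). None of these markers that define a cell type was at 0 in WT. Of 6 red pulp macrophage markers, 2 rose and 0 fell, with summed levels of 2241 and 2035 in WT against 2599 and 2797 in KLHL3-KI. In RNA from whole tissue, fewer cells of a type and less RNA per cell cannot be told apart, and the part of these shifts in any result below was not tested. Klhl3 itself had 3.02 and 4.67 in WT against 2.53 and 1.36 in KLHL3-KI (log2 fold change -0.72, SE 0.27, adjusted p = 0.0895), and since the allele is not given its level does not check the labels.

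Hsp90 of the cytosol is made from a stress-inducible gene, Hsp90aa1, and a constitutive one, Hsp90ab1. Hsp90aa1 had 620 and 429 in WT against 1163 and 1162 in KLHL3-KI. Both KLHL3-KI values were nearly equal and lay above both WT values. It rose by a log2 fold change of 1.17 (SE 0.15, 95% interval 0.83 to 1.52, adjusted p = 0.000548). Hsp90ab1 had 1323 and 1106 in WT against 1555 and 1357 in KLHL3-KI. Its groups did not overlap, but the change of 0.26 (SE 0.12, interval -0.01 to 0.54, adjusted p = 0.158) did not pass. The difference between the changes of the paralogues was not tested. Per kilobase of the principal transcript, mean Hsp90aa1 levels were 160 in WT and 354 in KLHL3-KI, and mean Hsp90ab1 levels were 482 and 578. By this measure Hsp90aa1 ranked in place 4 of the tested members in WT, behind Hspa8, Hsp90ab1 and Hspa5, and in place 3 in KLHL3-KI, where it passed Hspa5.

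Among the 10 tested Hsp70 genes, 3 rose. Hspa8, the constitutive Hsc70 and the highest of all members per kilobase, had 2810 and 2051 in WT against 3244 and 2482 in KLHL3-KI. The groups overlapped, and the log2 fold change was 0.24 (SE 0.18, interval -0.15 to 0.64, adjusted p = 0.362). Hspa5, the ER Hsp70 known as BiP, had 682 and 538 in WT against 740 and 664 in KLHL3-KI, which also overlapped (0.21, adjusted p = 0.264). Hspa9, the mitochondrial Hsp70 that pulls in imported proteins and serves iron-sulfur cluster assembly, had 132 and 117 in WT against 161 and 197 in KLHL3-KI. Both KLHL3-KI values were higher, and it rose by 0.52 (SE 0.12, adjusted p = 0.012). Hspa14, an Hsp70 of the ribosome, had 36.0 and 33.6 in WT against 47.7 and 54.1 in KLHL3-KI. Its groups stood apart and it rose by 0.53 (SE 0.11, adjusted p = 0.00848). The Hspa9 call was kept in 13 of 16 alternatives. It was lost with no variance trend (adjusted p = 0.0802), without WT replicate 2 (log2 fold change 0.43) and without KLHL3-KI replicate 2 (0.37). The Hspa14 call was kept in 14 of 16. It was lost with no variance trend (adjusted p = 0.0503) and without WT replicate 2 (log2 fold change 0.48).

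The inducible Hsp70 genes Hspa1a and Hspa1b differed by nearly 1 or more on the log2 scale between the libraries of each group. Hspa1b had 36.8 and 18.3 in WT against 77.4 and 39.8 in KLHL3-KI. The lower KLHL3-KI value stood just above the higher WT value, and the gene rose by 1.07 (SE 0.33, interval 0.32 to 1.81, adjusted p = 0.0452). The call was lost in 8 of 16 alternatives, among them edgeR (adjusted p = 0.0507), DESeq2 (0.313), the analysis without WT replicate 2 (log2 fold change 0.58, adjusted p = 0.352) and that without KLHL3-KI replicate 1 (0.60, adjusted p = 0.0715). Over all alternatives the log2 fold change ran from 0.58 to 1.55 and the adjusted p from 9.66e-06 to 0.352. Hspa1a had 20.6 and 7.99 in WT against 38.8 and 16.2 in KLHL3-KI. Its groups overlapped, and the change of 0.91 (SE 0.43, interval -0.05 to 1.87, adjusted p = 0.16) was not called. It was called without KLHL3-KI replicate 2 (log2 fold change 1.51, adjusted p = 0.000796), within 0.000321 to 0.74 over the alternatives. Of the 50-base windows of the Hspa1a transcript, 60.3% are shared with other genes, most of them with Hspa1b, so how reads were split between the paralogues is uncertain. Their summed level was 57.4 and 26.3 in WT against 116 and 56.0 in KLHL3-KI, so the sums overlapped. The 120 bases before the start site are printed because they show how alike the pair is: 119 of these 120 bases, and 247 of the 250 bases before the start, are identical. The stretches lie at chr17:34972157-34972276 for Hspa1a and at chr17:34959239-34959358 for Hspa1b (GRCm38.p6, both minus strand), and capitals mark a pair of heat shock element units.
Hspa1a: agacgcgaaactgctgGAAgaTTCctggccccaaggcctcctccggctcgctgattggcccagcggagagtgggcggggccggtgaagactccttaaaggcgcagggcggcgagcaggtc
Hspa1b: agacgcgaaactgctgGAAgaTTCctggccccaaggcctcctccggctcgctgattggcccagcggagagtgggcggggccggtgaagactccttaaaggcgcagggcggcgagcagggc

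The other tested Hsp70 genes were not called. Hspa13, an Hsp70-like protein of microsomes, had 41.6 and 35.9 in WT against 46.9 and 46.1 in KLHL3-KI, with both KLHL3-KI values higher (0.26, adjusted p = 0.135). Hspa2, best known from testis, and the divergent relatives Hspa12a and Hspa12b had log2 fold changes of -0.18, -0.21 and -0.32 with adjusted p-values of 0.498, 0.444 and 0.306.

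Of 3 Hsp110 genes, 1 rose. Hspa4l had 80.6 and 57.5 in WT against 121 and 122 in KLHL3-KI. Both KLHL3-KI values were well above WT, and it rose by 0.83 (SE 0.14, interval 0.50 to 1.15, adjusted p = 0.003). Hspa4 had 183 and 170 in WT against 197 and 214 in KLHL3-KI (0.22, SE 0.09, adjusted p = 0.132). Hsph1, the heat-inducible Hsp110, had 209 and 132 in WT against 250 and 153 in KLHL3-KI. In both groups replicate 1 was far above replicate 2 and the groups overlapped (0.24, SE 0.24, adjusted p = 0.514). Hsph1 was called higher without KLHL3-KI replicate 2 (0.59, adjusted p = 0.0234), and its log2 fold change ran from -0.11 to 0.59 and its adjusted p from 0.0234 to 0.86 over the alternatives.

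Both genes of the mitochondrial chaperonin rose. Hspd1, which encodes the Hsp60 barrel, had 184 and 142 in WT against 270 and 309 in KLHL3-KI. The groups stood well apart and it rose by 0.84 (SE 0.13, interval 0.55 to 1.13, adjusted p = 0.00153). Hspe1, which encodes the Hsp10 lid, had 59.2 and 42.0 in WT against 78.4 and 75.1 in KLHL3-KI. Its groups also stood apart, and it rose by 0.61 (SE 0.15, interval 0.28 to 0.94, adjusted p = 0.016). The Hspe1 call was kept in 13 of 16 alternatives. It was lost with quantile normalization (adjusted p = 0.0537), no variance trend (0.0851) and without WT replicate 2 (log2 fold change 0.37). The annotated models of these neighbours overlap on opposite strands, and whether counting used strand is not stated.

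Of 5 tested small heat shock genes, 1 rose. Hspb1, the inducible small heat shock protein known in the mouse as Hsp25, had 11.1 and 12.6 in WT against 31.3 and 32.6 in KLHL3-KI. The libraries of each group were close to each other and far from the other group, and it rose by 1.36 (SE 0.13, interval 1.07 to 1.66, adjusted p = 7.2e-05). Of the windows of its transcript, 58.9% are shared with the pseudogene Hsp25-ps1. Hspb7, known from heart and skeletal muscle, had 1.79 and 1.76 in WT against 2.42 and 5.65 in KLHL3-KI. KLHL3-KI replicate 2 stood far above the other 3 libraries, and the groups did not overlap (0.78, SE 0.31, adjusted p = 0.1). Hspb7 was called without KLHL3-KI replicate 1 (1.26, adjusted p = 0.00188), within 0.00188 to 0.567 over the alternatives. Hspb8, the partner of Bag3, had a change of 0.15 (adjusted p = 0.708), Hspb6 one of -0.19 (0.533) and Hspb11, which is part of the transport machinery of cilia, one of -0.11 (0.775).

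**Figure D2:**
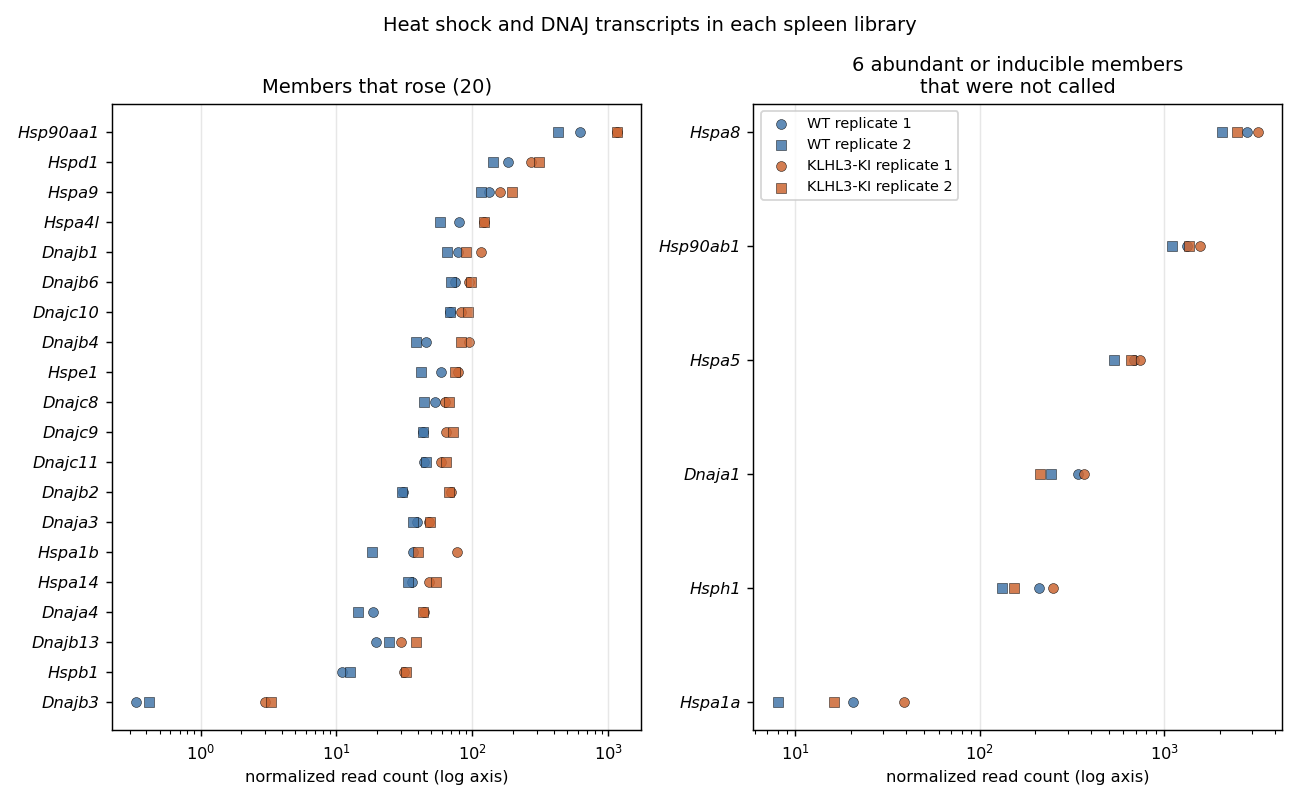
Normalized read count (x axis, log scale) of the 20 members that rose (left) and of 6 abundant or inducible members that were not called (right), with 1 point per library. Circles are replicate 1 and squares replicate 2, blue is WT and orange KLHL3-KI. On the left both orange points lie right of both blue points in each row. On the right the circles of both groups lie right of the squares of the same colour. The 6 were picked for display and do not cover all such members. Hspa4, also abundant and not called, is not shown, and its KLHL3-KI replicate 1 was under replicate 2 (197 against 214).

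The cytosolic J proteins of classes A and B, which choose the clients of Hsp70, held the most rises of any role. Of 11 tested, 7 rose, and their median log2 fold change was 0.51. Dnaja4 had 18.5 and 14.4 in WT against 43.9 and 43.0 in KLHL3-KI. The groups were far apart and it rose by 1.36 (SE 0.14, interval 1.05 to 1.67, adjusted p = 0.000104). Dnajb2, whose ubiquitin-binding motifs link Hsp70 to the proteasome, had 30.8 and 30.4 in WT against 69.6 and 68.0 in KLHL3-KI. Replicates differed little, and it rose by 1.14 (SE 0.10, interval 0.92 to 1.37, adjusted p = 4.08e-05). Dnajb4, a close relative of Dnajb1, had 46.0 and 38.8 in WT against 94.3 and 83.1 in KLHL3-KI. Both KLHL3-KI values were above WT, and it rose by 1.05 (SE 0.12, interval 0.78 to 1.32, adjusted p = 0.000212). None of the windows of the Dnaja4, Dnajb2, Dnajb3 and Dnajb4 transcripts is shared with another gene. Exons of Dnaja4 overlap those of Wdr61 on the opposite strand, and whether counting used strand is not stated.

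Dnajb3, a J protein best known from testis, was the least abundant member that rose. It had 0.336 and 0.415 in WT against 2.97 and 3.31 in KLHL3-KI, from 3 and 4 reads in WT and 27 and 34 reads in KLHL3-KI. The groups were far apart and the log2 fold change of 1.59 (SE 0.24, adjusted p = 0.0013) was the largest of the tested members. However, it rests on few reads and ran from 0.60 to 3.06 over the alternatives. Its adjusted p ran from 0.000552 to 0.0188, with no value from DESeq2 or with a mean of at least 5 required.

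Dnajb1, the inducible Hsp40 and main partner of Hsp70 in the heat shock response, had 79.2 and 64.9 in WT against 117 and 89.4 in KLHL3-KI. Its groups stood apart and it rose by 0.51 (SE 0.14, interval 0.18 to 0.83, adjusted p = 0.0316). Its call was kept in 9 of 16 alternatives. Among others, it was lost with quantile normalization (adjusted p = 0.119), equal totals (0.0999) and no variance trend (0.124). It was also lost without WT replicate 1 (log2 fold change 0.65), WT replicate 2 (0.36) or KLHL3-KI replicate 1 (0.31). Dnajb6, which keeps polyglutamine proteins from aggregating, and Dnajb13, a part of the axoneme of cilia and sperm tails, fell outside the rule for named genes and were added after their values were seen. Dnajb6 had 74.3 and 69.2 in WT against 94.8 and 97.5 in KLHL3-KI and rose by 0.42 (SE 0.09, adjusted p = 0.0118). That call was kept in 12 of 16 alternatives. It was lost with equal totals (adjusted p = 0.0634), no variance trend (0.0708), and without WT replicate 1 (log2 fold change 0.47) or WT replicate 2 (0.37). Dnajb13 had 19.7 and 24.3 in WT against 29.8 and 38.7 in KLHL3-KI and rose by 0.61 (SE 0.16, adjusted p = 0.0204). That call was kept in 10 of 16 alternatives. It was lost with quantile normalization (adjusted p = 0.0531), equal totals (0.0613) and no variance trend (0.079). It was also lost without WT replicate 1 (log2 fold change 0.47), WT replicate 2 (0.76) or KLHL3-KI replicate 2 (0.43). Dnajb6 and Dnajb13 both had groups that did not overlap. Exons of Dnajb13 overlap those of Ucp2 on the opposite strand.

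Dnaja1, the most abundant J protein by normalized read count and a heat-inducible partner of Hspa8, had 341 and 244 in WT against 369 and 211 in KLHL3-KI. Its KLHL3-KI values were the highest and the lowest of the 4 (log2 fold change -0.05, SE 0.23, interval -0.57 to 0.48, adjusted p = 0.911). Without KLHL3-KI replicate 1 it was called lower (-0.45, adjusted p = 0.0341), and its change ran from -0.45 to 0.35 and its adjusted p from 0.0341 to 0.989 over the alternatives. The other 3 cytosolic J proteins of these classes were not called, with log2 fold changes from -0.41 (Dnajb5) to 0.21 (Dnaja2), these ends being named after their values were seen. Dnajb5 was called lower in 1 rescaling (range of adjusted p 0.0471 to 0.674).

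The J proteins of the ER, which serve Hspa5 in import, folding and degradation, had 1 rise among 11 tested and a median log2 fold change of -0.01. Dnajc10, a disulfide reductase that helps clear misfolded proteins, had 68.7 and 68.6 in WT against 83.3 and 92.9 in KLHL3-KI. Its WT values were nearly equal and both KLHL3-KI values higher, and it rose by 0.35 (SE 0.10, adjusted p = 0.0307). Dnajc10 kept its call in 8 of 16 alternatives. Among others, it was lost with DESeq2 (adjusted p = 0.0665), equal totals (0.17) and no variance trend (0.112). It was also lost without WT replicate 1 (log2 fold change 0.35), WT replicate 2 (0.35) or KLHL3-KI replicate 2 (0.27). Dnajb11, which binds clients of Hspa5, had 70.6 and 60.4 in WT against 75.3 and 84.7 in KLHL3-KI and was not called (0.29, adjusted p = 0.102). It was called without KLHL3-KI replicate 1 (0.37, adjusted p = 0.0483), within 0.0483 to 0.463 over the alternatives. Dnajb12, an ER membrane J protein, had a change of 0.21 (adjusted p = 0.183). Dnajc18 had 22.7 and 21.1 in WT against 18.9 and 14.1 in KLHL3-KI, and its lower level was not called (-0.40, adjusted p = 0.104), except without KLHL3-KI replicate 1 (-0.60, adjusted p = 0.0138) and under 3 rescalings, within 0.0138 to 0.498. Dnajb9 and Dnajc3 fell outside the rule for named genes and were added as known ER stress genes after their values were seen. Dnajb9 had 58.6 and 50.3 in WT against 48.5 and 49.0 in KLHL3-KI, and Dnajc3 had 195 and 163 in WT against 190 and 164 in KLHL3-KI (adjusted p = 0.355 and 0.957). Dnajb9 was called lower with equal totals (-0.32, adjusted p = 0.0478; range 0.0478 to 0.844).

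Of the 7 mitochondrial J proteins, 2 rose. Dnajc11, a partner of the complex that shapes the cristae, had 44.1 and 45.5 in WT against 58.7 and 63.6 in KLHL3-KI, which did not overlap, and rose by 0.44 (SE 0.10, adjusted p = 0.0131). Dnaja3, the J protein partner of Hspa9 in the matrix, had 39.4 and 36.6 in WT against 47.7 and 49.2 in KLHL3-KI, which did not overlap, and rose by 0.34 (SE 0.11, adjusted p = 0.0441). The Dnajc11 call was kept in 10 of 16 alternatives. It was lost with quantile normalization (adjusted p = 0.0634), equal totals (0.0678) and no variance trend (0.0648). It was also lost without WT replicate 1 (log2 fold change 0.42), WT replicate 2 (0.46) or KLHL3-KI replicate 2 (0.38). The Dnaja3 call was lost when any 1 library was left out (adjusted p from 0.0653 to 0.23) and in 11 of 16 alternatives in all, within 0.0365 to 0.232. Dnajc15, which restrains complex I of the respiratory chain, had 35.4 and 31.6 in WT against 25.1 and 30.8 in KLHL3-KI, with both KLHL3-KI values lower but no call (-0.26, adjusted p = 0.204). It was called lower with equal totals (-0.42, adjusted p = 0.0387) and in 1 other rescaling, within 0.0387 to 0.634 over the alternatives. Dnajc28 had a change of 0.19 (adjusted p = 0.465).

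Of the 5 J proteins of the nucleus and the ribosome, 2 rose. Dnajc9, a chaperone of histones H3 and H4, had 43.6 and 43.5 in WT against 64.5 and 71.8 in KLHL3-KI. The groups stood apart and it rose by 0.63 (SE 0.10, interval 0.40 to 0.87, adjusted p = 0.00221). Dnajc8, which is found with the spliceosome, had 53.5 and 44.4 in WT against 63.0 and 67.8 in KLHL3-KI and rose by 0.42 (SE 0.12, adjusted p = 0.0309). Dnajc8 kept its call in 9 of 16 alternatives. Among others, it was lost with DESeq2 (adjusted p = 0.0617), equal totals (0.118) and no variance trend (0.109). It was also lost without WT replicate 2 (log2 fold change 0.28) and without KLHL3-KI replicate 2 (0.36). Dnajc2, the partner of Hspa14 at the ribosome, had 44.4 and 38.4 in WT against 46.5 and 47.2 in KLHL3-KI and was not called (0.18, adjusted p = 0.291), and neither was Dnajc17 (0.41, adjusted p = 0.241).

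No vesicle J protein of 4 was called with limma, edgeR or DESeq2, and at an unadjusted p under 0.05 there were 1 higher and 1 lower. Dnajc6, the auxilin that strips clathrin coats with Hspa8, had 7.16 and 7.47 in WT against 9.69 and 12.2 in KLHL3-KI (0.51, adjusted p = 0.0604), and was called without KLHL3-KI replicate 1 (0.66, adjusted p = 0.0276; range 0.0276 to 0.317). Dnajc27, a small GTPase with a J domain, had 11.5 and 13.0 in WT against 9.47 and 8.18 in KLHL3-KI (-0.43, adjusted p = 0.0853), and was called lower in 3 rescalings (range 0.0256 to 0.342). Dnajc5, the cysteine string protein of secretory vesicles, and Dnajc13, an endosomal protein, had changes of -0.07 and -0.08 with intervals of -0.27 to 0.13 and -0.28 to 0.12.

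Dnajc12, a cochaperone of the aromatic amino acid hydroxylases, was the 1 member that fell. It had 2.91 and 3.22 in WT against 1.43 and 1.56 in KLHL3-KI, from 26 and 31 reads in WT and 13 and 16 in KLHL3-KI. Its groups stood apart at this low level, and it fell by 0.70 on the log2 scale (SE 0.22, adjusted p = 0.0475). The call was lost when any 1 library was left out, with adjusted p-values of 0.138 and 0.22 without WT replicates 1 and 2 and of 0.0949 and 0.0932 without KLHL3-KI replicates 1 and 2, within 0.0204 to 0.315 over the alternatives. Dnajc7, which binds both Hsp70 and Hsp90, had 169 and 175 in WT against 146 and 140 in KLHL3-KI. The groups stood apart, but the change of -0.27 (SE 0.09, interval -0.47 to -0.07, adjusted p = 0.0561) did not pass. It did pass as lower in 4 of the alternatives, which gave adjusted p-values from 0.00515 to 0.238 in all. Dnajc24, which takes part in making diphthamide, had a change of 0.01 (adjusted p = 0.976).

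Some members, several of them heat-inducible, varied widely between the libraries of 1 group. Replicate 1 exceeded replicate 2 in both groups, by any amount, in 23 tested members (35.9%, beside 22.8% of all tested genes). In WT, replicate 1 exceeded replicate 2 by 1.26 on the log2(value + 1) scale for Hspa1a, 0.97 for Hspa1b, 0.66 for Hsph1, 0.48 for Dnaja1 and 0.45 for Hspa8. In KLHL3-KI the same differences were 1.21, 0.94, 0.70, 0.80 and 0.39. These 5 were the members that differed by more than 0.3 in this direction in both groups, 7.81% of the 64 tested members beside 1.53% of all tested genes, with the limit of 0.3 chosen after the values were seen. The replicate numbers come from the sample titles and carry no order. In the submitters' library names both replicate 2 libraries end in the same number and the replicate 1 libraries do not, and what that number marks is not stated. These differences were not tested. Hsp90aa1 behaved otherwise, with a difference of 0.53 in WT and 0.00 in KLHL3-KI. Of the Hsp90 cochaperones, Chordc1 had 140 and 95.3 in WT against 145 and 84.2 in KLHL3-KI, and Ahsa2 had 48.6 and 31.6 in WT against 56.3 and 39.1 in KLHL3-KI, so that both split by library in the same way. Both were chosen after their values were seen, and neither was called (adjusted p = 0.869 and 0.42), except for Chordc1 as lower without KLHL3-KI replicate 1 (-0.45, adjusted p = 0.0443; range 0.0443 to 0.97).

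**Figure D3:**
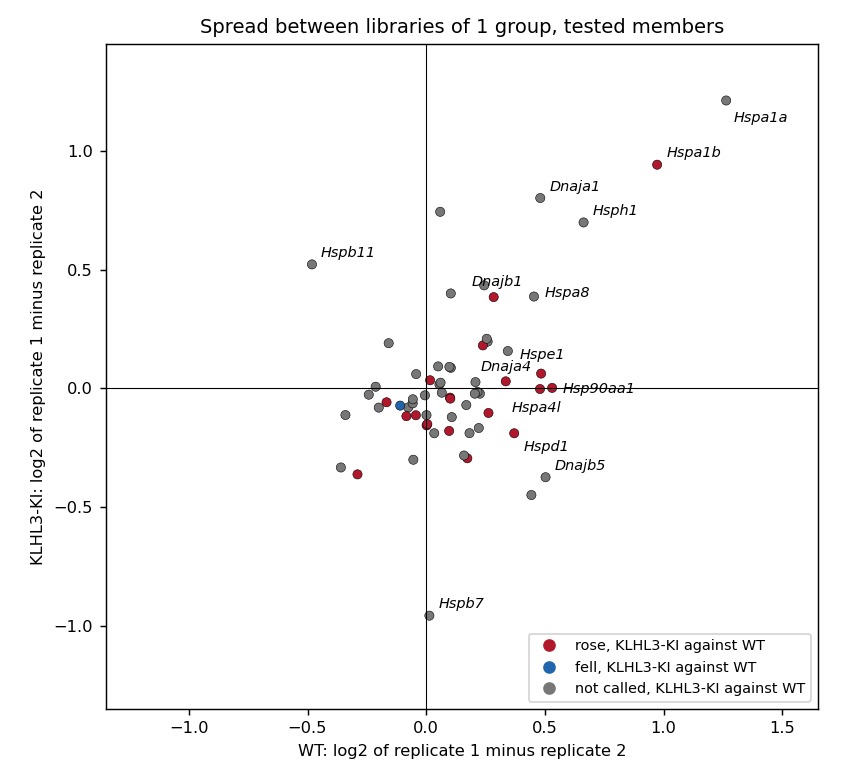
Difference between replicate 1 and replicate 2 on the log2(value + 1) scale in WT (x axis) and in KLHL3-KI (y axis), with 1 point for each of the 64 tested members, coloured by its call. Hspa1a, Hspa1b, Hsph1, Dnaja1 and Hspa8 lie far to the upper right, and Hsp90aa1 lies to the right at 0.53 and 0.00.

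Chaperone genes outside the name pattern were taken from lists by function, and of 82 tested, 22 (26.8%) rose and 3 (3.66%) fell, against 15.2% and 7.56% of all tested genes. With WT replicate 2 left out, 5 rose (6.1%, against 8.17% of all genes). The heat shock factors and their regulator were not called: of 3 tested, 0 passed with limma, edgeR or DESeq2 and 0 had an unadjusted p under 0.05. Hsf1 had 44.6 and 43.0 in WT against 34.8 and 39.1 in KLHL3-KI, with both KLHL3-KI values lower (-0.24, SE 0.11, adjusted p = 0.155), and was called lower in 3 rescalings (range 0.022 to 0.452). Among 13 nucleotide exchange and degradation cofactors of Hsp70, 2 rose, which is near the share of 15.2% over all tested genes. Bag2, which exchanges the nucleotide and holds back the ligase Stub1, had 3.80 and 3.84 in WT against 15.5 and 13.4 in KLHL3-KI, and rose by 1.68 (SE 0.17, adjusted p = 0.000101). Bag1, which links Hsp70 to the proteasome, had 37.8 and 38.5 in WT against 57.6 and 66.6 in KLHL3-KI, and rose by 0.68 (SE 0.11, adjusted p = 0.00202). Both Bag genes kept their calls in all 16 alternatives. Bag3, the stress-inducible member, was named after its values were seen and had 11.3 and 11.4 in WT against 14.9 and 10.9 in KLHL3-KI, and its groups overlapped.

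Of 18 Hsp90 cochaperones, 5 rose and 1 fell. Ppid, a peptidyl-prolyl isomerase, rose by 0.61 (adjusted p = 0.00403), Nudc by 0.52 (0.00755) and Aarsd1 by 0.64 (0.013). Unc45a, a myosin chaperone named after its value was seen, fell from 39.8 and 44.0 to 29.5 and 29.9 (-0.48, adjusted p = 0.013). With no variance trend, Unc45a lost its call (adjusted p = 0.055). None of the 18 was called without WT replicate 2, where Ppid had an adjusted p of 0.0657 (range 0.000372 to 0.0657), Nudc of 0.0677 (0.00385 to 0.0677), Aarsd1 of 0.0915 (0.0033 to 0.0915) and Unc45a of 0.129 (0.00195 to 0.129). Without WT replicate 1, Nudc (0.0596) and Aarsd1 (0.0811) also lost their calls, as did Aarsd1 without KLHL3-KI replicate 2 (0.0818). The cytosolic chaperonin TRiC, which folds actin and tubulin, and prefoldin, which hands clients to it, had 8 rises among 14 tested and a median log2 fold change of 0.45. Tcp1 had 185 and 160 in WT against 253 and 266 in KLHL3-KI and rose by 0.59 (SE 0.10, adjusted p = 0.00269), Cct8 rose by 0.57 (adjusted p = 0.00354) and Vbp1 by 0.57 (0.00382). Of the 14, 2 were called without WT replicate 2, where the adjusted p of Cct8 was 0.0539 (range 7.68e-05 to 0.0539). Mitochondrial folding and protease factors had 4 rises among 13, among them Phb2 (0.56, adjusted p = 0.00733), Afg3l2 (0.53, 0.00776) and Htra2 (0.50, 0.0145). Leaving out WT replicate 2 left 0 of these 13 called, and leaving out WT replicate 1 left 1. The adjusted p ranged up to 0.0727 for Phb2, 0.083 for Afg3l2 and 0.108 for Htra2 over the alternatives, and down to 0.000198, 0.000487 and 0.00406. With no variance trend, 0 of the 13 were called. Htra2 kept its call in 10 of 16 alternatives. Among others, it also lost the call with equal totals (adjusted p = 0.0573) and without KLHL3-KI replicate 2 (log2 fold change 0.39).

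The folding factors of the ER had 2 rises and 1 fall among 18, near or under the shares of all tested genes, and a median of 0.07. The lectin chaperone Canx had 445 and 383 in WT against 585 and 604 in KLHL3-KI and rose by 0.53 (adjusted p = 0.00544), and the oxidase Ero1l rose by 0.45 (0.0167). Its paralogue Ero1lb had 156 and 148 in WT against 118 and 97.9 in KLHL3-KI and fell by 0.50 on the log2 scale (adjusted p = 0.0101). None of the 18 passed without WT replicate 2, where Canx had an adjusted p of 0.0687 (range 3.88e-05 to 0.0687), Ero1l of 0.132 (0.00965 to 0.132) and Ero1lb of 0.074. With no variance trend, 0 of the 18 were called, Canx included (adjusted p = 0.0548). Ero1l kept its call in 9 of 16 alternatives. Among others, it also lost the call with DESeq2 (adjusted p = 0.0501) and equal totals (0.0707). The same held without WT replicate 1 (log2 fold change 0.50) or KLHL3-KI replicate 2 (0.38). Ero1lb kept its call in 13 of 16, and also lost it with no variance trend (adjusted p = 0.0729) and without WT replicate 1 (log2 fold change -0.46). Hsp90b1 had 925 and 809 in WT against 964 and 905 in KLHL3-KI, which overlapped (0.11, adjusted p = 0.494). Among J-domain genes that the name pattern missed, the ER translocation factor Sec63 (-0.17, adjusted p = 0.237) and the clathrin uncoating factor Gak (-0.16, adjusted p = 0.248) were not called, except as lower in 3 rescalings (ranges 0.0295 to 0.599 and 0.0261 to 0.605), and neither was Hscb, which serves iron-sulfur cluster assembly (0.32, adjusted p = 0.2). Of 3 other chaperones, the collagen chaperone Serpinh1 rose by 0.64 (adjusted p = 0.0011). The extracellular chaperone Clu fell by 0.54 on the log2 scale (adjusted p = 0.00805). The Clu call was lost with no variance trend (adjusted p = 0.0671). It was also lost without WT replicate 1 (log2 fold change -0.50) or WT replicate 2 (-0.58).

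**Figure D4:**
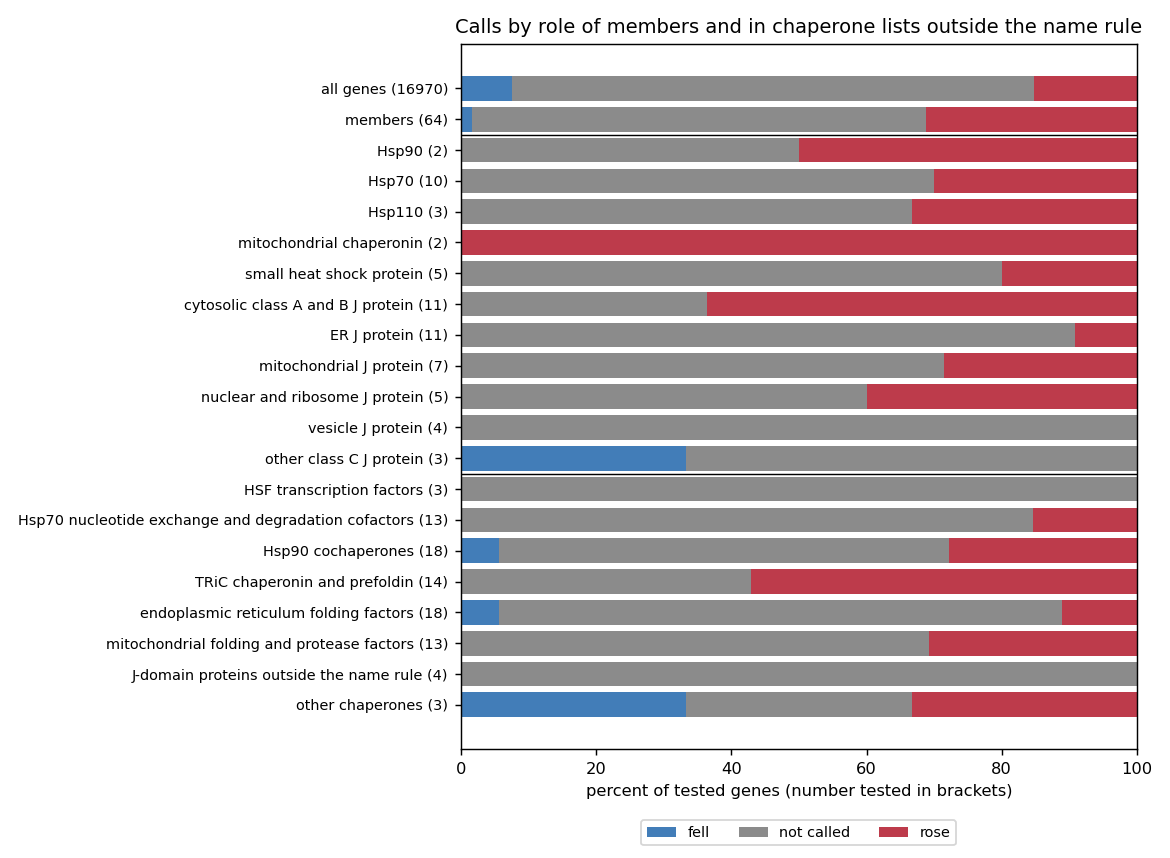
Percent of tested genes (x axis, number tested in brackets) that fell (blue), were not called (grey) or rose (red) among all genes, all members, members by role and the chaperone lists outside the name pattern. Rises make up 15.2% of all tested genes and 31.2% of members, and are most frequent in the roles and lists with 7 of 11 and 8 of 14 rises and in the chaperonin pair.

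Sequence shared between genes limits some of these values. Of the 50-base windows of the principal transcript, 73.2% for Hspa8, 58.5% for Hsp90aa1, 44.8% for Hspd1, 41.9% for Dnajb6, 36.1% for Hspe1 and 18.7% for Dnaja1 also occur in transcripts of other genes, so these levels are uncertain to the extent that reads were divided among copies. Annotated models of other genes overlapped 8 of the 64 tested members on the same strand and 21 on the opposite strand, among them 2 and 6 of the 20 that rose. On the same strand these were Hspa14 (Gm45902, which shares 15.6% of its windows) and Dnaja3 (Vasn). On the opposite strand they were Dnaja4 (Wdr61), Dnajb6 (Gm5129), Dnajb13 (Ucp2), Dnaja3 (Coro7), and Hspd1 and Hspe1 with each other.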

How the data were processed

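Spleen RNA of 4 libraries was compared, 2 WT and 2 KLHL3-KI, grouped and numbered by their titles. Per the submitters' processing notes, Trimmomatic 0.38, Bowtie2, RSEM 1.3.0 and edgeR were used with build GRCm39; the sources used here do not state their roles, the annotation or any filter. The authors deposited a normalized signal per gene, and all of these values (100%) were whole multiples of 1 read per library within 0.001, so whole reads were recovered. Symbols came from a GRCm38 annotation (158 identifiers had none), so no coordinates in the files' build are given, and promoter sequences, start sites and their GRCm38.p6 coordinates are RefSeq's.

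Genes with a mean of at least 1 were compared in limma 3.58.1 (R 4.3.3) on log2(value + 1), two-sided, with a mean-variance trend and Benjamini-Hochberg adjustment. An exact permutation test of 2 against 2 libraries cannot go below p = 0.333 and was not used. The recovered counts of the deposited table were also tested with edgeR 4.0.16 and DESeq2 1.42.0. The 16 alternatives were pseudocounts of 0.1 and 5, no filter, a minimum mean of 5, median-ratio factors, quantile normalization, equal totals, removal of haemoglobin, immunoglobulin and mitochondrial genes, no trend, both count tests, a replicate block and each library left out. Named were all tested Hsp90, Hsp70, Hsp110, chaperonin and small heat shock genes, Dnajb1, Dnaja1 and Dnajc9, up to 4 genes per other J protein role and up to 3 per further list by lowest p, others as stated. The members and lists were chosen with earlier results of these data known. Shared windows and overlaps were computed from GENCODE M21 transcripts.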

Additional observations from a re-analysis of the deposited data

How the results depend on the processing

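For the 82 named genes, 1163 gene values under an alternative had the same status as reported, called or not called. The 1163 include genes that were not called in either analysis. Another 109 values lost a call, 32 gained one and 0 reversed a called direction. The 20 rises and 1 fall among members became 12 and 5 with quantile normalization and 12 and 7 with equal totals. Without mitochondrial, haemoglobin and immunoglobulin genes they became 16 and 7, and they became 9 and 1 without a variance trend. The number of falls was 0 with a pseudocount of 0.1, no filter, DESeq2 or the replicate block. Over all tested genes the rises and falls under these first 4 were 12% and 14%, 11.3% and 18.4%, 12.5% and 17.7%, and 10.6% and 3.88%, against 18.8% and 7.81%, 18.8% and 10.9%, 25% and 10.9%, and 14.1% and 1.56% of members. Leaving out 1 library gave 9 to 20 rises and 0 to 2 falls. The 22 rises and 3 falls of chaperone genes outside the name pattern became 9 and 0 without a trend, and the falls 10 with quantile normalization, 10 with equal totals and 9 with those genes removed. Leaving out 1 library gave 5 to 24 rises and 0 to 4 falls there. The member median of 0.21 was 0.0846 with quantile normalization, 0.0489 with equal totals, 0.0768 with those genes removed, and 0.15 to 0.30 with 1 library left out. The medians of all genes under these 3 rescalings were -0.10, -0.16 and -0.14, and member minus all-gene medians were 0.18, 0.21 and 0.21, beside 0.22 as reported. The cause of these changes was not tested. Same-numbered libraries of the groups are not said to be paired, and the correlation of their replicate differences was -0.03 over all tested genes and 0.49 over members, across genes that are not independent. With the replicate block 20 members rose, 19 of them among the 20 reported; Hspa1a was called (adjusted p = 0.000321), and Dnaja3 (0.0547) and Dnajc12 (0.0581) were not. Genes with few reads, such as Dnajb3 and Dnajc12, are limited by depth, and all values by 2 libraries per group.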
